A study of Mus musculus with 12 samples.

Results

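RNA was sequenced from mouse T helper 17 (Th17) cells that had received the RORgt inhibitor GSK805 with or without ILA. The genes described are those with a mean of at least 1 FPKM, which counts fragments per kilobase of gene scaled to library size, in the GSK805+ILA or the GSK805 libraries: 12981 of the 29522 genes in the files. They were measured in 6 of the study's 12 libraries, 3 with GSK805+ILA and 3 with GSK805 alone. All groups came from naive splenic CD4+ T cells of C57BL/6J wild-type mice, isolated with magnets, activated through CD3 and CD28 and grown in a supplement for Th17 differentiation. One group received 0.5 uM GSK805 together with 200 uM ILA and was set against cells with 0.5 uM GSK805 alone. The other pair of groups, 3 libraries with 200 uM ILA alone and 3 with vehicle, gave the ILA effect without the inhibitor on the same genes. The labels give ILA as an abbreviation alone, taken to mean indole-3-lactic acid. The labels call the 3 libraries of a group biological replicates but name no animals, and culture time is not given. Each p-value therefore rests on the variation among such replicates. In bulk RNA, fewer cells of a type and less RNA per cell cannot be told apart.

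RORgt, a nuclear receptor, drives the Th17 programme, in which T cells secrete interleukin-17A and interleukin-17F and defend mucosal surfaces. GSK805 is a small molecule that blocks its activity. Indole-3-lactic acid is a tryptophan metabolite of gut bacteria, and several indoles activate the aryl hydrocarbon receptor (AhR). That receptor pairs with ARNT and binds DNA beside genes such as Cyp1a1. The comparison asks what ILA does when the inhibitor is present. Under inhibition means below that GSK805 was present; RORgt activity itself was not measured, and the order of addition is not given.

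The cells carried the markers of CD4 T cells. That list does not tell Th17 cells from other CD4 T cells, and Th17 genes are given further below. All 10 genes of the CD4 T cell identity list were at or above 1 FPKM, and their summed level was 1470 to 1540 FPKM in the GSK805+ILA libraries and 984 to 1010 FPKM in the GSK805 libraries. Of the markers of other cells, 6 of 8 B cell genes, 5 of 7 measured CD8 T and NK genes, all 7 gamma delta T genes, 8 of 10 myeloid genes, 7 of 8 erythroid and platelet genes and 6 of 7 stromal genes stayed below 1 FPKM in both groups, and 5 of the erythroid genes were listed at 0. The myeloid list summed to 10.3 to 12.9 FPKM with GSK805+ILA and 8.09 to 8.51 FPKM with GSK805, led by Cd68. The stromal list, led by Pecam1, summed to 6.52 to 7.3 FPKM with GSK805+ILA and 3.46 to 3.61 FPKM with GSK805. The CD8 T and NK list summed to 19.2 to 20.8 FPKM with GSK805+ILA and 14.6 to 16.7 FPKM with GSK805. The gamma delta list summed to 0.627 to 1.35 FPKM with GSK805+ILA and 1.25 to 2.08 FPKM with GSK805, so the 2 groups overlapped there, as they did for B cell and erythroid genes. The part of these cells in the results was not tested. Library depth, recovered from the FPKM steps, was 18.62 M, 22.45 M and 23.49 M reads with GSK805+ILA and 23.42 M, 21.72 M and 21.01 M with GSK805. The 50 most abundant genes took 22.45% ± 0.104 of all FPKM with GSK805+ILA and 20.11% ± 0.0611 with GSK805 (SD, n = 3; two-sided exact permutation test, p = 0.1, the lowest value possible with 3 libraries a group).

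ILA changed a large share of the transcriptome of cells given GSK805, with more genes higher than lower. With GSK805+ILA, 2925 of the 12981 genes were higher than with GSK805, 2350 were lower and 7706 did not pass, by limma with Benjamini-Hochberg adjustment and a threshold of 0.05. Over all 13511 genes tested, the share called was 39.5%, with 22% higher and 17.5% lower. These shares are the background for the list counts of GSK805+ILA against GSK805 below. Counts for ILA against vehicle have their own background, 33.9% higher and 24% lower. For the difference between the 2 ILA effects it was 5.15% positive and 8.7% negative. Most changes were small: 183 genes were at least 2-fold higher and 87 at least 2-fold lower, where every fold is a ratio of FPKM + 1 and so understates the change of genes with low levels. At an unadjusted p below 0.05 the count was 6385 of 12981. Of the calls, 55.5% were higher. This split depends on the scaling: 46.7% were higher after quantile normalization, with 2460 higher and 2809 lower (median log2 difference of the members -0.03), and 41.4% with median centring of every library, with 2331 higher and 3294 lower (median -0.04).

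The main Th17 cytokines fell with GSK805+ILA relative to GSK805 alone. Il17a, which encodes interleukin-17A (chromosome 1, 20730905 to 20734496, GRCm38), stood at 36.4, 38.5 and 45.5 FPKM with GSK805+ILA, against 97.7, 122 and 107 FPKM with GSK805. The groups were far apart, and every GSK805+ILA library lay well below the lowest GSK805 library. Il17a averaged 40.1 ± 4.75 FPKM with GSK805+ILA and 109 ± 12.2 FPKM with GSK805 (SD, n = 3 each), a log2 difference of -1.42 (SE 0.12, limma adjusted p = 6.1e-06). Il17f, the neighbouring gene for interleukin-17F, had 131, 142 and 148 FPKM with GSK805+ILA, against 248, 276 and 282 FPKM with GSK805, again without overlap (log2 difference -0.93, SE 0.07, adjusted p = 2.3e-06).

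**Figure D1:**
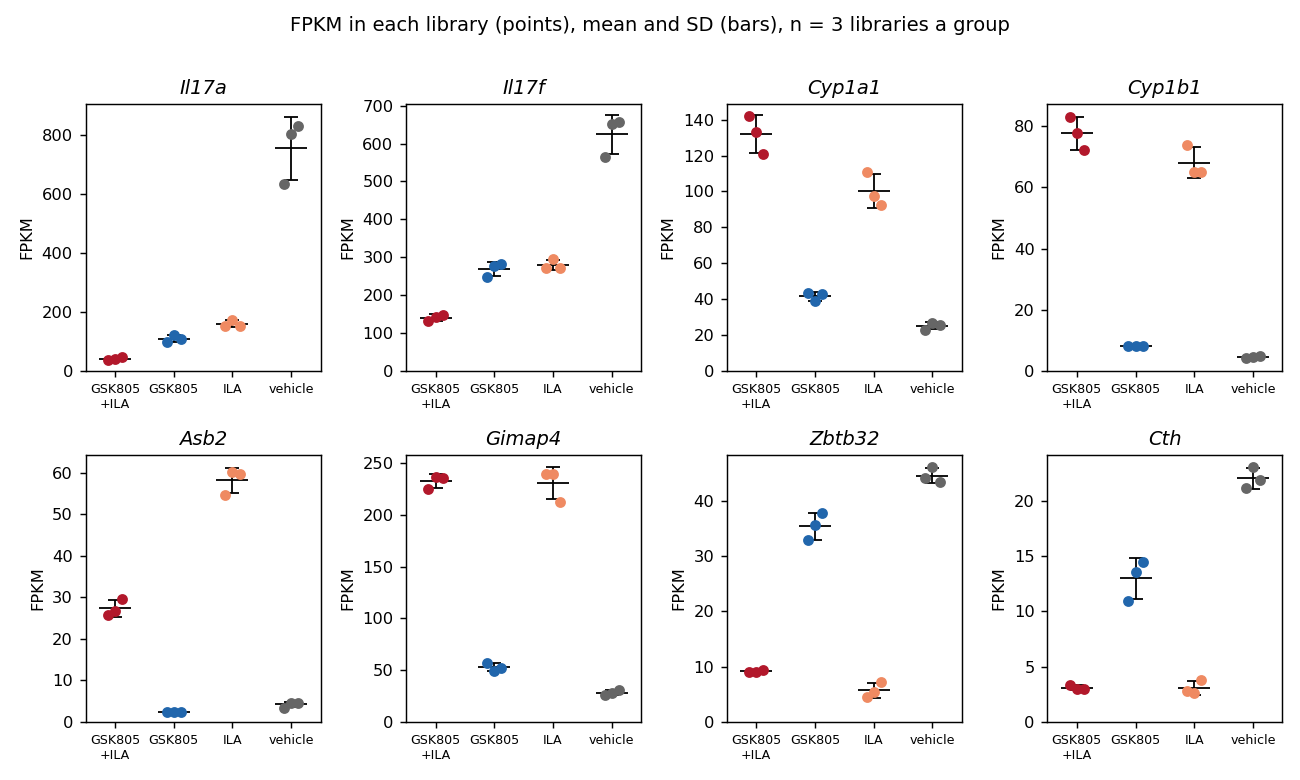
FPKM of 8 genes in each library (points), with the mean and SD of the 3 libraries of a group (bars), on linear axes from 0. The 3 GSK805+ILA libraries lie apart from the 3 GSK805 libraries in every panel: Il17a averages 40.1 against 109 FPKM, Cyp1b1 77.7 against 8.05 FPKM and Gimap4 233 against 52.5 FPKM. Asb2, Gimap4, Zbtb32 and Cth were named by a rule that asks for no overlap, so their separation follows from that choice.

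Of the 11 listed RORgt targets 8 were at or above 1 FPKM, and they split, 2 higher and 4 lower, with a median log2 difference of -0.65, against 0.02 over all 12981 genes. Besides the interleukins, Furin, a protease that processes precursor proteins, fell to 32.4 ± 1.49 FPKM with GSK805+ILA, against 61.1 ± 1.94 FPKM with GSK805 (log2 difference -0.90, adjusted p = 1.6e-07). Il1r1, the receptor for interleukin-1, fell to 5.33 ± 0.375 FPKM with GSK805+ILA, against 10.6 ± 0.999 FPKM with GSK805 (adjusted p = 6.4e-06). The membrane proteins Tmem176a and Tmem176b went the other way, with log2 differences of 0.49 and 0.71 (adjusted p = 0.0012 and 4.6e-06). The list therefore did not move as a block.

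The other 3 targets lay below 1 FPKM in both groups. Il23r, the receptor for interleukin-23, had 0.345, 0.179 and 0.359 FPKM with GSK805+ILA, against 0.584, 1.02 and 0.651 FPKM with GSK805 (adjusted p = 0.0271). That call was lost without GSK805+ILA replicate 2 (0.0927), without GSK805 replicate 2 (0.105), with no filter (0.0651) and with only the groups compared (0.0645). Ccr6, the chemokine receptor of Th17 cells, had 0.116, 0.134 and 0.294 FPKM with GSK805+ILA, against 0.755, 1.21 and 0.985 FPKM with GSK805 (log2 difference -0.74, adjusted p = 0.00037). Il22, an epithelial cytokine, had 0.484, 0.522 and 0.997 FPKM with GSK805+ILA, against 0.231, 0.539 and 0.472 FPKM with GSK805, and did not pass (adjusted p = 0.549). Only in Il22 of these 3 genes did the libraries of the 2 groups overlap.

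Maf, which encodes c-Maf, a factor of both Th17 cells and interleukin-10 producers, had 25.1, 27.8 and 25.4 FPKM with GSK805+ILA, against 13.8, 13.8 and 11.5 FPKM with GSK805 (log2 difference 0.95, adjusted p = 3e-06). Of the 15 factors and signals of the Th17 lineage 5 rose (Maf, Il6ra, Il6st, Stat3 and Ikzf3) and 4 fell (among them Rora, Irf4 and Il21), with a median log2 difference of 0.06, which was -0.01 after quantile normalization; without GSK805+ILA replicate 2, 3 rose and 3 fell. Irf4, needed for Th17 differentiation, fell to 188 ± 7.04 FPKM with GSK805+ILA, against 305 ± 7.52 FPKM with GSK805 (log2 difference -0.70). Rora, which encodes a nuclear receptor of Th17 cells, fell by 0.68 on the log2 scale, and Il21, a cytokine that sustains Th17 cells, by 1.09.

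Targets of the aryl hydrocarbon receptor included the largest rise of the named genes. Cyp1b1, a cytochrome P450 enzyme (chromosome 17, 79701537 to 79715061, GRCm38), had 83.1, 77.9 and 72.1 FPKM with GSK805+ILA, against 8.04, 7.98 and 8.13 FPKM with GSK805. That is 8.68-fold higher, with a log2 difference of 3.12 (SE 0.07, adjusted p = 9.9e-10). Cyp1a1, which oxidizes AhR ligands, had 142, 133 and 121 FPKM with GSK805+ILA, against 43.3, 38.7 and 42.6 FPKM with GSK805, 3.12-fold higher (SE 0.08 on the log2 scale, adjusted p = 1.9e-07). The lowest GSK805+ILA library was far above the highest GSK805 library in both genes. Ahrr, which encodes the repressor of the receptor, had lower levels and also rose, with 6.4, 6.24 and 5.77 FPKM in GSK805+ILA libraries, against 2.56, 2.2 and 2.36 FPKM in GSK805 libraries (adjusted p = 9.8e-07).

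Of the 10 listed AhR targets 5 were at or above 1 FPKM. Of these 3 rose, none fell, and 2 did not pass: Tiparp, an ADP-ribosyltransferase that limits AhR activity, at 70.6 ± 3.84 FPKM with GSK805+ILA and 66.7 ± 2.68 FPKM with GSK805 (adjusted p = 0.443), and the quinone reductase Nqo1, at 3.27 ± 0.748 FPKM with GSK805+ILA and 2.81 ± 1.59 FPKM with GSK805 (adjusted p = 0.486). The receptor gene Ahr had 4.74, 4.84 and 4.5 FPKM with GSK805+ILA, against 4.78, 4.31 and 4.18 FPKM with GSK805, which overlap (log2 difference 0.07, SE 0.09, adjusted p = 0.571). Among its partners, Arnt rose by a log2 difference of 0.28, whereas the chaperones Hsp90aa1 and Hsp90ab1, which hold the receptor in the cytoplasm, fell by 0.51 and 0.25 on the log2 scale.

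The promoters of 3 AhR targets that rose and of Tiparp, which did not pass, are shown because they can be set side by side with these levels. They run from 250 bases before to 50 bases after the RefSeq start (GRCm38.p6), on the gene's strand, and capitals mark the receptor's core GCGTG or its complement CACGC, searched on both strands. Cyp1a1 is chr9:57697363-57697662 (plus strand), Cyp1b1 chr17:79715012-79715311 (minus), Ahrr chr13:74292282-74292581 (minus) and Tiparp chr3:65528197-65528496 (plus).
Cyp1a1: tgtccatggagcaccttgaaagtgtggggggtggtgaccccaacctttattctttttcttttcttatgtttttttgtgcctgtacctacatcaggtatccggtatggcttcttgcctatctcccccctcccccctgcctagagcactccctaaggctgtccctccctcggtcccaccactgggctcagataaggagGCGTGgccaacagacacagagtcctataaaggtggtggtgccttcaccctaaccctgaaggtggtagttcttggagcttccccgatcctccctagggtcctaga
Cyp1b1: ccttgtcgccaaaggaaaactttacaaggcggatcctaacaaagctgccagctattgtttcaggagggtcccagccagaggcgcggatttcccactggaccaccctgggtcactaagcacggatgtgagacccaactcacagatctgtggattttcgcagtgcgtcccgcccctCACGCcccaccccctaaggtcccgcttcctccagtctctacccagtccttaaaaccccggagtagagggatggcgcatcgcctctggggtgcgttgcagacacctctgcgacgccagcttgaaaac
Ahrr: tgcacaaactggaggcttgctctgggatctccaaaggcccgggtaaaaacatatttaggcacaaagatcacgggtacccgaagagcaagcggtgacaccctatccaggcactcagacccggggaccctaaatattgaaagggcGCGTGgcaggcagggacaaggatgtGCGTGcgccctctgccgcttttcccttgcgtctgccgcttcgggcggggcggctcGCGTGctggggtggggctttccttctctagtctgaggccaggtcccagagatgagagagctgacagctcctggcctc
Tiparp: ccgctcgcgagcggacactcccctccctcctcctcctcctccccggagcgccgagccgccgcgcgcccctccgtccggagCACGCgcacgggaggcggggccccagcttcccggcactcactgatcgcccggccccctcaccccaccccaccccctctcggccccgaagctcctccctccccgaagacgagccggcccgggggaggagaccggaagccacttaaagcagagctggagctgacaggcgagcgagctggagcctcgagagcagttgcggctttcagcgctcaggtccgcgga

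The Ahrr window held 3 matches and the other 3 windows 1 each, while Nqo1 held none. The letters are common, in 32.4% of all 32851 promoters of the table, and Tiparp had them without a change that passed, so a match is a description of the sequence alone.

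The 10 largest rises under the naming rule were those of Cyp1b1, Asb2, Npas4, Il12rb2, Gimap4, Hic1, Fyb, Bmf, Myo1f and Cyp1a1. Asb2, a subunit of an E3 ubiquitin ligase, had 25.8, 26.6 and 29.6 FPKM with GSK805+ILA, against 2.29, 2.33 and 2.39 FPKM with GSK805, 8.48-fold higher (log2 difference 3.08, SE 0.09, adjusted p = 5.4e-09). Npas4, an activity-dependent transcription factor best known in neurons, had 8.34, 7.25 and 8.64 FPKM with GSK805+ILA, against 0.857, 0.635 and 0.679 FPKM with GSK805 (log2 difference 2.40). Both genes were low without ILA and uniform across the 3 libraries of each group. Il12rb2, the signalling chain of the interleukin-12 receptor, had 12.8, 14.5 and 12.3 FPKM with GSK805+ILA, against 2.57, 2.04 and 2.16 FPKM with GSK805 (log2 difference 2.13), and it overlaps Serbp1 on the opposite strand. Hic1, a transcriptional repressor, rose by a log2 difference of 2.04, Bmf, a BH3-only protein that promotes cell death, by 1.74, and Myo1f, a myosin of leukocytes, by 1.74.

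Gimap4 belongs to a cluster of immune GTPases on chromosome 6 that are expressed in resting lymphocytes. Its level was 225, 237 and 236 FPKM with GSK805+ILA, against 56.7, 49 and 51.9 FPKM with GSK805, 4.37-fold higher (log2 difference 2.13, SE 0.07, adjusted p = 1.9e-08). All 8 genes of the cluster rose, with a median log2 difference of 0.99. Gimap3 reached 219 ± 5.96 FPKM with GSK805+ILA, against 85.9 ± 2.32 FPKM with GSK805, and the smallest rise was that of Gimap6, by a log2 difference of 0.69. Gimap1 and Gimap7 overlap the annotated gene Gm28053 on the same strand, so their reads can be split between them.

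Genes of T cell receptor signalling rose as well: 20 of 25 rose, none fell and 5 did not pass, with a median log2 difference of 0.54 and against a background of 22% higher. With median centring the count was 19 higher and 2 lower. Fyb, an adaptor that links the receptor to integrins, had 50.9, 57.1 and 55.2 FPKM with GSK805+ILA, against 16.7, 14.7 and 14.2 FPKM with GSK805 (log2 difference 1.77, adjusted p = 6.1e-08). Cd4, the coreceptor, had 84.1, 91.5 and 87.7 FPKM with GSK805+ILA, against 40.9, 39.2 and 38.9 FPKM with GSK805 (log2 difference 1.13). The kinase Lck and the receptor chain Cd3d rose by 0.84 and 0.92, whereas the kinase Zap70 did not pass (log2 difference -0.09, adjusted p = 0.129). Several of these genes are also on the list of CD4 T cell markers, all 10 of which rose, so the summed marker level given above moved with this list.

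Genes that the activated receptor induces did not follow. Of 32 genes of T cell activation 6 rose, 14 fell and 12 did not pass, with a median log2 difference of -0.08. That median was 0.02 without GSK805+ILA replicate 1, and voom on recovered reads, a fit chosen after seeing the data, had 10 higher. Havcr2, the inhibitory receptor TIM-3, had 2.15, 2.18 and 1.89 FPKM with GSK805+ILA, against 4.99, 5.85 and 6.26 FPKM with GSK805 (log2 difference -1.12). Cd40lg, the helper signal to B cells, had 12.9, 17.3 and 14.5 FPKM with GSK805+ILA, against 24.8, 31.9 and 32.6 FPKM with GSK805 (log2 difference -0.95). In contrast Lag3, another inhibitory receptor, had 53.1, 53 and 53.2 FPKM with GSK805+ILA, against 25.4, 25.6 and 20.5 FPKM with GSK805 (log2 difference 1.13), and Ctla4 rose by 1.16. Inhibitory receptors thus lay on both sides of the list.

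Cytokines and chemokines had 24 of 32 listed genes at or above 1 FPKM, of which 3 rose, 14 fell and 7 did not pass, with a median log2 difference of -0.85 against a background of 17.5% lower. Il3, a growth factor of myeloid cells, had 2.73, 1.13 and 1.22 FPKM with GSK805+ILA, against 9.3, 6.51 and 12 FPKM with GSK805 (log2 difference -1.94, SE 0.27, adjusted p = 0.00023). Il2, the T cell growth factor, fell to 241 ± 31.6 FPKM with GSK805+ILA, against 523 ± 59.1 FPKM with GSK805 (log2 difference -1.12, adjusted p = 4.6e-05). The chemokines Xcl1, Ccl4, Ccl5 and Ccl3, which draw other leukocytes, fell by 1.31, 1.21, 1.04 and 0.99 on the log2 scale. Ifng, the Th1 cytokine, was low in all libraries, with 1.24, 1.58 and 1.05 FPKM with GSK805+ILA, against 4.68, 2.99 and 3.38 FPKM with GSK805 (log2 difference -1.02, adjusted p = 0.00023). The 3 that rose were Ltb (lymphotoxin beta, log2 difference 0.90), Il16 (0.75) and Tgfb1 (0.21). Il10, an anti-inflammatory cytokine, had 2.42, 2.24 and 2.86 FPKM with GSK805+ILA, against 3.59, 3.41 and 3.42 FPKM with GSK805 and did not pass (log2 difference -0.35, SE 0.15, adjusted p = 0.0795), although the libraries did not overlap. Il10 passed after quantile normalization (0.0361), median centring (0.0443) and with only the groups compared (0.0183).

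The Th1 and regulatory T cell lists had more rises than falls. Of 12 Th1 genes 8 rose and 4 fell. The rises included the receptors Il12rb2 and Il18r1 (log2 difference 1.14), the transcription factor Runx3 (0.98) and the signal transducer Stat4 (0.73). The falls were those of Ifng, the chemokine receptors Cxcr3 (-1.58) and Cxcr6 (-0.59) and the receptor chain Il12rb1 (-0.57). Of 12 regulatory T cell (Treg) genes 8 rose, 1 fell (Il2ra, log2 difference -0.49) and 3 did not pass, with a median of 0.56. Izumo1r, the folate receptor 4 of Treg cells, had 8.43, 9.64 and 7.61 FPKM with GSK805+ILA, against 2.67, 1.57 and 2.09 FPKM with GSK805 (log2 difference 1.63). Foxp3, the defining factor of that lineage, had 2.17, 2.15 and 2.19 FPKM with GSK805+ILA, against 1.89, 1.75 and 1.86 FPKM with GSK805, and did not pass (log2 difference 0.16, SE 0.10, adjusted p = 0.224). Foxp3 overlaps other genes on the opposite strand, and it was low beside the receptors on the list. Of the 5 Th2 genes at or above 1 FPKM 1 rose and 4 did not pass.

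The 10 largest falls under the naming rule, which asks for a mean of at least 5 FPKM, were those of Il3, Mcpt1, Zbtb32, Cth, Mcpt2, Spp1, Selp, Timp1, Perp and Inhba. Zbtb32, a repressor of lymphocyte proliferation, had 9.02, 9 and 9.34 FPKM with GSK805+ILA, against 32.9, 35.6 and 37.8 FPKM with GSK805 (log2 difference -1.85, SE 0.11, adjusted p = 5.5e-07). Mcpt1 and Mcpt2 encode mast cell proteases with like sequences, so their reads can be shared; Mcpt1 had 2.81, 2.77 and 0.924 FPKM with GSK805+ILA, against 11.1, 10.1 and 10.1 FPKM with GSK805. Cth, the enzyme that makes cysteine from cystathionine, had 3.37, 2.94 and 2.97 FPKM with GSK805+ILA, against 10.9, 13.6 and 14.5 FPKM with GSK805 (log2 difference -1.77, adjusted p = 7.9e-07). The levels of each of these genes with ILA were a fraction of those without it. The naming rule also asks for no overlap between libraries, so their separation follows from that choice. Spp1 (osteopontin) and Inhba (the activin A subunit), both secreted proteins, fell by 1.63 and 1.49, Timp1, an inhibitor of metalloproteinases, by 1.60, and Selp (P-selectin) by 1.60 on the log2 scale.

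Genes of the endoplasmic reticulum (ER) unfolded protein response, which encode chaperones and folding enzymes for secreted proteins, fell almost as a block. Of 22 genes 18 fell, none rose and 4 did not pass (Xbp1, Edem1, Atf6 and Ern1), with a median log2 difference of -0.57. Ern1 and Atf6 encode sensors of the response and Xbp1 a transcription factor downstream of Ern1; Eif2ak3, the gene of a further sensor, PERK, was not on the list. Dnajb9, a co-chaperone, had 20.1, 22.4 and 22.3 FPKM with GSK805+ILA, against 48.9, 49.1 and 47.9 FPKM with GSK805 (log2 difference -1.14, adjusted p = 2.8e-07). Derl3, a factor of ER-associated degradation, had 1.94, 1.12 and 1.24 FPKM with GSK805+ILA, against 4.35, 5.75 and 4.99 FPKM with GSK805 (log2 difference -1.32). The abundant chaperone Hspa5 (BiP) fell to 554 ± 14.5 FPKM with GSK805+ILA, against 851 ± 45.1 FPKM with GSK805 (log2 difference -0.62, adjusted p = 2.1e-06).

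The promoters of 2 chaperone genes that fell, Hspa5 (chr2:34771840-34772139, plus strand) and Canx (chr11:50325624-50325923, minus strand), are shown with the ER stress element in capitals, searched on both strands as CCAAT, 9 bases of any kind and then CCACG (RefSeq, GRCm38.p6, gene's strand).
Hspa5: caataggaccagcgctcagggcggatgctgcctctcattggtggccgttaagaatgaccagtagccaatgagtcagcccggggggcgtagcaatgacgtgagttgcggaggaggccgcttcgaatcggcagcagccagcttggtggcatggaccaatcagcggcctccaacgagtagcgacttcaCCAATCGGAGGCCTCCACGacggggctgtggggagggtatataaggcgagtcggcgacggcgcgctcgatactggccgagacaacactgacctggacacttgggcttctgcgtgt
Canx: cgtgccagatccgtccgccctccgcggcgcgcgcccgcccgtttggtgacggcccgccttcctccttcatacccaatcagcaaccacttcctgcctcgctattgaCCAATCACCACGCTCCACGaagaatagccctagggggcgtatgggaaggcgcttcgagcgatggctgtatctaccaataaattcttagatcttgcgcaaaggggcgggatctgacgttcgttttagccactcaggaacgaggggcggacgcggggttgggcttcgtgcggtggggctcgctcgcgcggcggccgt

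It stood in 9 of the 19 matched promoters of the list, those of Calr, Canx, Creld2, Derl3, Dnajc3, Hsp90b1, Hspa5, Pdia6 and Syvn1, all genes that fell, and in 39 of all 32851 promoters (0.119%). The element was first described on promoters of this gene family, so its presence here is a property of the list and not of these data. Canx was shown from among the genes that carry the element.

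Related programmes of amino acid supply and protein synthesis fell too. The ATF4 and amino acid list had 28 genes, of which 1 rose and 22 fell (median log2 difference -0.33), led by Cth and by the cationic amino acid transporter Slc7a3, at 2.75 ± 0.0778 FPKM with GSK805+ILA and 7.76 ± 0.418 FPKM with GSK805 (log2 difference -1.22, adjusted p = 1.2e-07). Of 20 cytosolic and other aminoacyl-tRNA synthetases 17 fell and none rose, each by a small amount, such as Gars, by 0.37 on the log2 scale. Of 23 genes of the Myc and ribosome biogenesis list 16 fell and none rose (median -0.27), although Myc itself did not pass (127 ± 12.3 FPKM with GSK805+ILA and 129 ± 8.63 FPKM with GSK805, adjusted p = 0.855). The share of all FPKM in ribosomal protein genes was 11.66% ± 0.367 with GSK805+ILA and 10.64% ± 0.142 with GSK805 (two-sided exact permutation test, p = 0.1, the lowest value possible). Acly, which supplies acetyl-CoA for lipid synthesis, fell to 73 ± 1.12 FPKM with GSK805+ILA, against 150 ± 7.41 FPKM with GSK805 (log2 difference -1.03), while Scd2, a fatty acid desaturase, rose by 1.05.

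**Figure D2:**
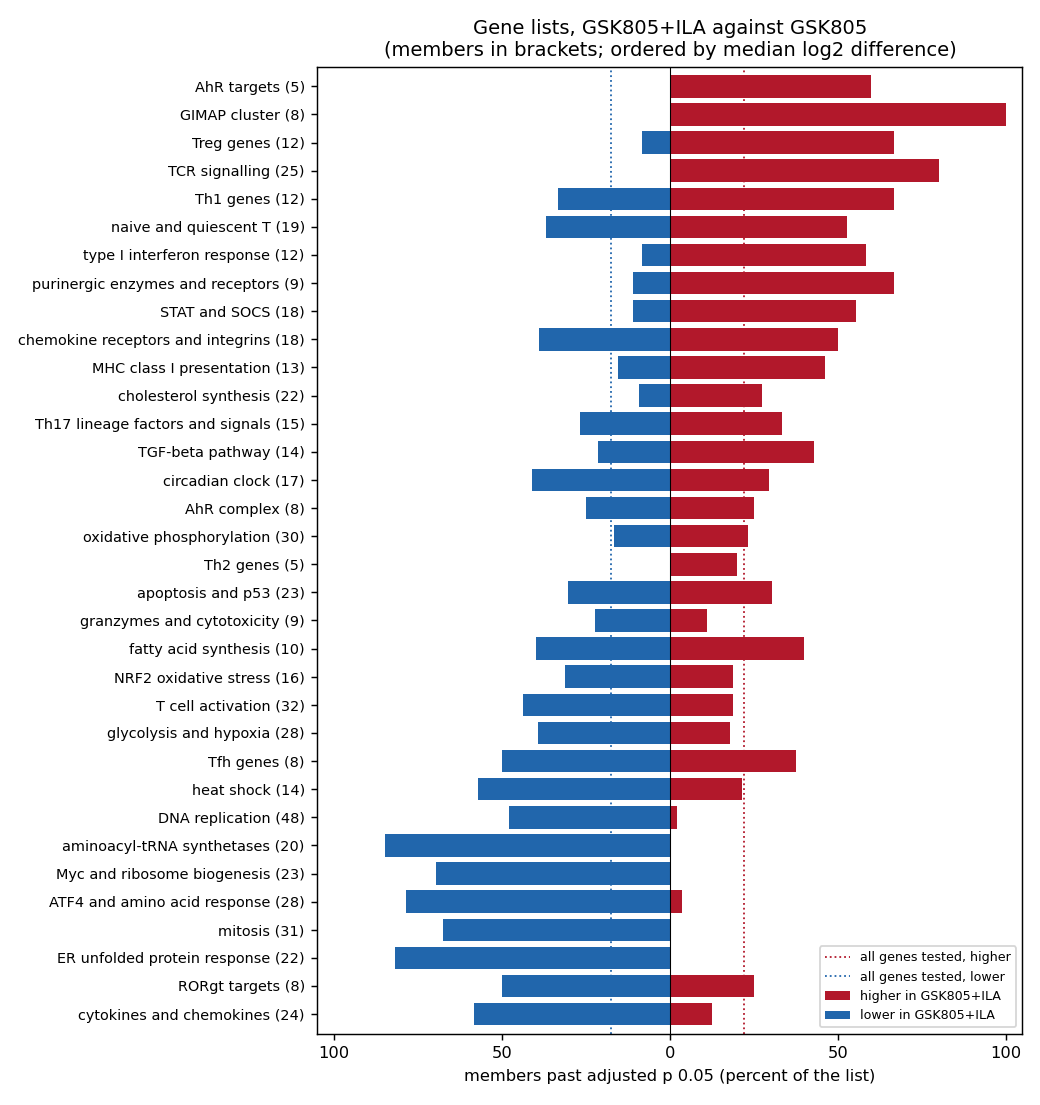
Share of each list's members at or above 1 FPKM that were higher (red, to the right) or lower (blue, to the left) with GSK805+ILA than with GSK805 by limma at an adjusted p below 0.05, with the number of members in brackets. Dotted lines mark the shares over all genes tested, 22% higher and 17.5% lower, and lists run from the highest median log2 difference (AhR targets, 1.08) at the top to the lowest (cytokines and chemokines, -0.85) at the bottom.

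Genes of cell division fell with GSK805+ILA. Of 31 genes of mitosis 21 fell, none rose and 10 did not pass, with a median log2 difference of -0.35. Mki67, the proliferation marker Ki-67, had 10.2, 11.3 and 11.3 FPKM with GSK805+ILA, against 16.4, 15.5 and 15.6 FPKM with GSK805 (log2 difference -0.50, SE 0.06, adjusted p = 5.7e-05). Cdc20, an activator of the anaphase-promoting complex, had 8.85, 9.97 and 9.32 FPKM with GSK805+ILA, against 14.6, 16.8 and 17.2 FPKM with GSK805 (log2 difference -0.73), and it overlaps Elovl1 on the opposite strand. The groups lay apart in both genes. Of 48 DNA replication genes 1 rose (Rpa1) and 23 fell, with a median of -0.24: the helicase subunits Mcm5 and Mcm3 fell by 0.91 and 0.55, and the cyclin Ccne2 by 0.95 on the log2 scale. With a filter at 5 FPKM, which leaves out the less expressed genes, mitosis had 1 gene higher and 12 lower, and DNA replication 1 higher and 15 lower. Without GSK805+ILA replicate 2, DNA replication had 3 higher and 21 lower.

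Without the inhibitor ILA did not lower these mitotic genes. With ILA alone Mki67 had 18.8, 20 and 19 FPKM, against 15.2, 13.7 and 13.2 FPKM with vehicle, so it was higher there (log2 difference 0.43, adjusted p = 7.1e-05) and lower in the other pair. The difference between the 2 effects, tested as an interaction, was -0.93 on the log2 scale (SE 0.08, adjusted p = 0.00043). Of the 31 mitosis genes 14 rose and none fell with ILA alone, with a median log2 difference of 0.22, and the count depends on scaling: 7 rose and 3 fell after quantile normalization, and 7 rose and 2 fell with median centring. The interaction was negative and called in 22 of the 31 genes, none was positive, and the median was -0.61; under either of those scalings it was called in 17. The shares over all genes tested were 33.9% higher and 24% lower for ILA against vehicle, and 8.7% for negative interactions. For DNA replication, 17 of 48 genes rose and 11 fell with ILA alone, near those shares. The counts became 8 and 17 after quantile normalization and 5 and 14 with median centring. In this list 14 interactions were called, all negative, or 9 under either scaling. Mcm5, Mcm3 and Ccne2, named above, also fell with ILA alone, with log2 differences of -0.54, -0.24 and -1.03. Their interactions were not called (limma adjusted p = 0.0982, 0.0692 and 0.769). For that list 7 fell with ILA alone without vehicle replicate 2, 11 rose and 8 fell without ILA replicate 2, and the called interactions were 9 without GSK805+ILA replicate 3, 8 without ILA replicate 2 and 7 with no filter.

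**Figure D3:**
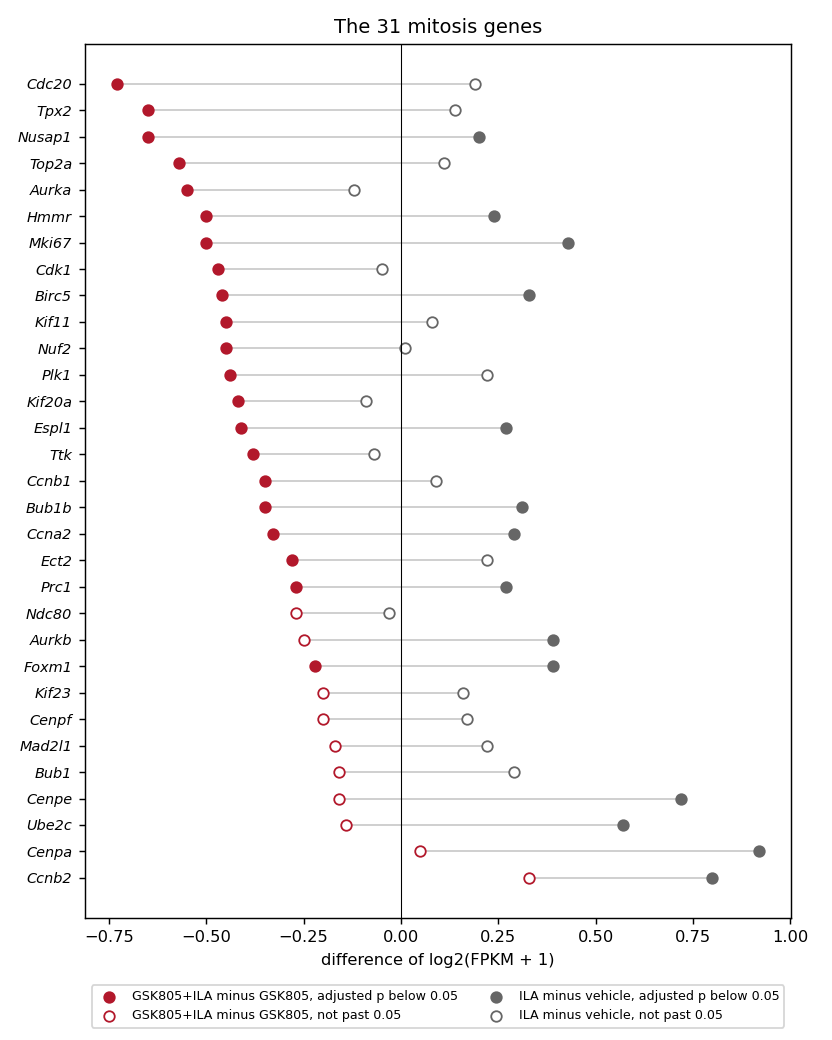
Difference of log2(FPKM + 1) for the 31 mitosis genes, GSK805+ILA minus GSK805 (red) and ILA minus vehicle (grey), joined by a line for each gene. Filled points passed an adjusted p of 0.05: 21 red points lie below 0 and none above, while 14 grey points lie above 0 and none below.

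The promoters of Mki67 (chr7:135716330-135716629, minus strand) and Cdc20 (chr4:118437294-118437593, minus strand) are shown. These 2 genes fell under inhibition, are described above and were taken only from genes whose promoter carries the motif marked here. Capitals mark TTTGAA, the cell cycle homology region known from late cell cycle genes, searched on both strands (RefSeq, GRCm38.p6, gene's strand).
Mki67: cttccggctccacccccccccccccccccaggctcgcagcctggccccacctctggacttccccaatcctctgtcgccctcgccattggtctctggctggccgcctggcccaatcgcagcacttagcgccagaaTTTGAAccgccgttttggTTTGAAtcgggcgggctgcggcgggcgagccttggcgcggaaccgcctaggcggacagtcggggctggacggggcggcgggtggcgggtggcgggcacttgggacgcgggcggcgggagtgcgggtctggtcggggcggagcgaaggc
Cdc20: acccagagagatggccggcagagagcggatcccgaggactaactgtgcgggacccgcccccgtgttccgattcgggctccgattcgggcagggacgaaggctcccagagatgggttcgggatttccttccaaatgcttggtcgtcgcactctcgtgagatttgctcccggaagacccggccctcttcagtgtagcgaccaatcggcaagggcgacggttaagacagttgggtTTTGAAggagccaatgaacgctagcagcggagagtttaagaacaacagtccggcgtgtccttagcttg

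These letters stood in 21 of 28 promoters of the 26 mitosis genes that matched the table, and in 17.9% of all 32851 promoters. The motif was chosen after the values were seen.

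Across all genes, what ILA did with the inhibitor resembled what it did without, at a smaller size. With ILA alone 4411 of the 12981 genes were higher than with vehicle and 3167 lower, and 682 and 210 changed at least 2-fold. Their median log2 difference was 0.06 as reported and -0.08 with median centring, so small rises with ILA alone depend on the scaling. Over all 13511 genes tested 57.9% were called, 33.9% higher and 24% lower. The 2 comparisons share no library, but both come from 1 fit over the 12 libraries and so share its estimate of the spread. Of the 2925 genes that rose with GSK805+ILA, 2633 also rose with ILA alone, which is 90.0% of that list and 59.7% of the 4411. Of the 2350 genes that fell, 1951 also fell with ILA alone, which is 83.0% of that list and 61.6% of the 3167. The genes that rose under inhibition had a median log2 difference of 0.42 there and of 0.62 with ILA alone, and those that fell -0.30 and -0.39. Across the 12981 genes the 2 log2 differences had a Pearson correlation of 0.801 and a Spearman correlation of 0.786, given as a description, since genes are not independent and all libraries share 1 culture scheme.

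Among the other pair of libraries, ILA replicate 2 stood apart in 1 marker list. Its erythroid and platelet genes summed to 46.9 FPKM, of which haemoglobin genes made up 45.3, against 1.45 and 0.926 FPKM in the other ILA libraries and 1.82 to 2.29 FPKM with vehicle. Other lists also differed between these groups: CD8 T and NK genes summed to 35.0 to 37.4 FPKM with ILA and 19.4 to 22.6 FPKM with vehicle, stromal genes to 10.1 to 11.4 FPKM with ILA and 4.15 to 4.75 FPKM with vehicle, and myeloid genes to 11.2 to 12.9 FPKM with ILA and 7.91 to 9.55 FPKM with vehicle. The gamma delta T genes summed to 0.603 to 0.994 FPKM with ILA and 2.1 to 2.87 FPKM with vehicle, and B cell genes to 8.23 to 8.75 FPKM with ILA and 6.16 to 6.62 FPKM with vehicle. The part of these cells in the results was not tested. Without ILA replicate 2, 4029 genes were higher and 2915 lower with ILA than with vehicle, and 2576 rose and 1874 fell in both comparisons. The interaction then had 516 positive and 831 negative calls, and of the genes called in the same direction in both, 943 had a smaller and 5 a larger effect with GSK805. Mitosis had 10 genes higher and none lower with ILA alone and 17 negative interactions, the ER unfolded protein response 16 positive interactions, Myc and ribosome biogenesis 19, the GIMAP cluster 7 negative and T cell receptor signalling 12 negative. The cytokine list again had 10 positive and 3 negative.

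The interaction, the ILA effect with GSK805 minus that with vehicle, was called in 1841 genes, 683 positive and 1158 negative. Over all 13511 genes it was called in 13.8%, with 5.15% positive and 8.7% negative. Among the 4584 genes called in the same direction in both comparisons, it was called in 1238, and in 1227 of these the effect was smaller with GSK805 and in 11 larger. That lopsided count held under each of 8 alternatives applied to all libraries, with 712 to 1661 genes smaller and 4 to 25 larger. The split of all interaction calls did not hold: 37.1% were positive as reported and 63.4% with median centring (1268 positive and 733 negative). The positive count came to 406 without vehicle replicate 3, 430 without GSK805+ILA replicate 3, 415 without GSK805 replicate 1 and 342 with no filter. The negative count came to 748 without GSK805+ILA replicate 3 and 649 with no filter. Calls in opposite directions were few, 46 genes, of which 37 fell with GSK805+ILA and rose with ILA alone. That count depends on the settings: it was 17 with no filter, 29 without vehicle replicate 3 and 27 without ILA replicate 2, ran from 27 to 41 over the 12 libraries left out in turn, and was 64 with voom. With median centring 20 of 40 fell with GSK805+ILA.

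**Figure D4:**
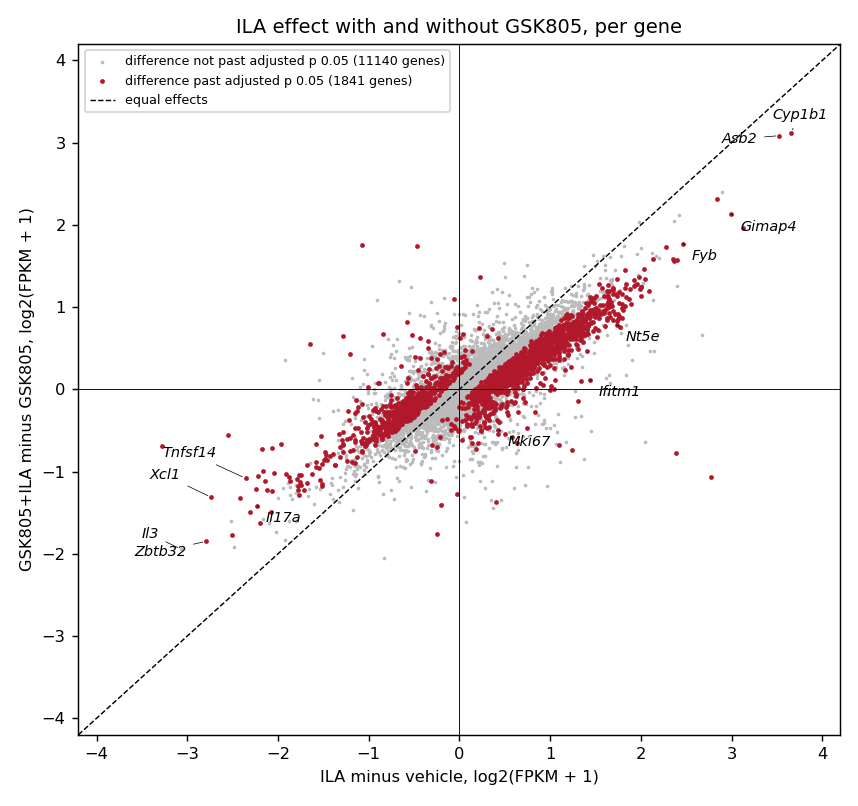
Each point is 1 of 12981 genes, with the ILA effect without inhibitor (ILA minus vehicle) on the x axis and the ILA effect under inhibition (GSK805+ILA minus GSK805) on the y axis, both as differences of log2(FPKM + 1). Red points are the 1841 genes whose 2 effects differed by limma at an adjusted p below 0.05; most lie between the dashed line of equal effects and the x axis, and Mki67 lies in the lower right of the plot.

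Among the lists, the smaller size under inhibition was tested gene by gene. In the ER unfolded protein response 20 genes fell and none rose with ILA alone, with a median log2 difference of -0.95, against -0.57 under inhibition, and 17 of 22 interactions were positive and none negative. In Myc and ribosome biogenesis all 23 genes fell with ILA alone (median -0.60), with 19 positive interactions, or 10 where no filter on low values was used and 11 without GSK805+ILA replicate 3. In the GIMAP cluster the median was 0.99 under inhibition and 1.45 with ILA alone, with 7 of 8 interactions negative. Means with GSK805+ILA in Gimap4, Gimap3, Gimap1 and Gimap7 were 233, 219, 47.4 and 4.27 FPKM. With ILA alone they were 231, 192, 47.3 and 4.45 FPKM. Without ILA they were 52.5, 85.9, 21.5 and 0.602 FPKM with GSK805. With vehicle they were 28.1, 46, 16.6 and 0.359 FPKM. In T cell receptor signalling 14 of 25 interactions were negative and none positive. Of the 5 AhR targets 1, Cyp1b1, had a called interaction (log2 -0.53, adjusted p = 0.0065), and Cyp1a1 rose 3.12-fold under inhibition and 3.89-fold with ILA alone (interaction adjusted p = 0.0946).

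Of the 6 largest positive interactions under the naming rule 4 were those of the cytokine genes Xcl1, Tnfsf14, Ccl3 and Ccl4, and the others those of the immune receptor Slamf7 and of Nr4a2. Xcl1 had 8.52, 9.11 and 11.4 FPKM with GSK805+ILA, against 26.7, 25.4 and 24 FPKM with GSK805. In the other pair Xcl1 had 5.84, 5.79 and 5.79 FPKM with ILA, against 35.5, 48.6 and 50.5 FPKM with vehicle, and its interaction was 1.42 on the log2 scale (SE 0.18, adjusted p = 0.0013). The fall was thus steeper without the inhibitor, where vehicle libraries were high. Tnfsf14, the ligand LIGHT, had 20.8, 20.6 and 24.1 FPKM with GSK805+ILA, against 42.2, 50.8 and 48.8 FPKM with GSK805. In the other pair Tnfsf14 had 8.19, 9.87 and 10.2 FPKM with ILA, against 50.5, 52.5 and 53.6 FPKM with vehicle (interaction 1.27, adjusted p = 0.00043). Here the levels without ILA were close and the ILA libraries lay further down without the inhibitor. Of the 24 cytokine genes 10 had a positive and 3 a negative called interaction, beside 5.15% and 8.7% of all genes tested.

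Il17a also fell less under inhibition on the log2 scale. It had 153, 173 and 153 FPKM with ILA, against 634, 803 and 832 FPKM with vehicle, a 4.7-fold fall next to the 2.67-fold fall under inhibition (interaction 0.81, SE 0.17, adjusted p = 0.0117). For Il17f the folds were 1.91 under inhibition and 2.23 without, and that difference did not pass (interaction 0.22, SE 0.10, adjusted p = 0.159). The 2 effects on Maf were both rises, of 0.95 under inhibition and 1.69 with ILA alone (interaction -0.74, adjusted p = 0.0021).

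Negative interactions included genes whose rise was smaller under inhibition. Nt5e, the ecto-enzyme CD73 that makes adenosine, had 72.9, 75.8 and 72.1 FPKM with GSK805+ILA, against 44.5, 42.4 and 40.2 FPKM with GSK805. With ILA alone Nt5e had 90.6, 94.7 and 90 FPKM, against 28.2, 25.7 and 27 FPKM with vehicle (interaction -0.95, SE 0.06, adjusted p = 8.6e-05). The level without ILA was thus higher with the inhibitor and the level with ILA lower, so the effect shrank from both sides. Hivep3, a zinc finger factor, reached nearly the same level with ILA in both pairs, at 50.3, 48.8 and 48.2 FPKM with GSK805+ILA and 50.9, 52.6 and 52.3 FPKM with ILA. Its levels without ILA were 28.1, 28.2 and 29.5 FPKM with GSK805 and 16.6, 12.9 and 14.4 FPKM with vehicle (interaction -1.01, adjusted p = 0.00043). In contrast, the interaction of Nr4a2 was positive (1.03, adjusted p = 0.0016). Nr4a2, an orphan receptor switched on by antigen receptor signalling, overlapped between the groups under inhibition (9.31, 11 and 10.3 FPKM with GSK805+ILA, 9.02, 11.2 and 9.9 FPKM with GSK805) and fell with ILA alone, to 14.8 ± 0.426 FPKM against 31 ± 4.12 FPKM with vehicle.

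**Figure D5:**
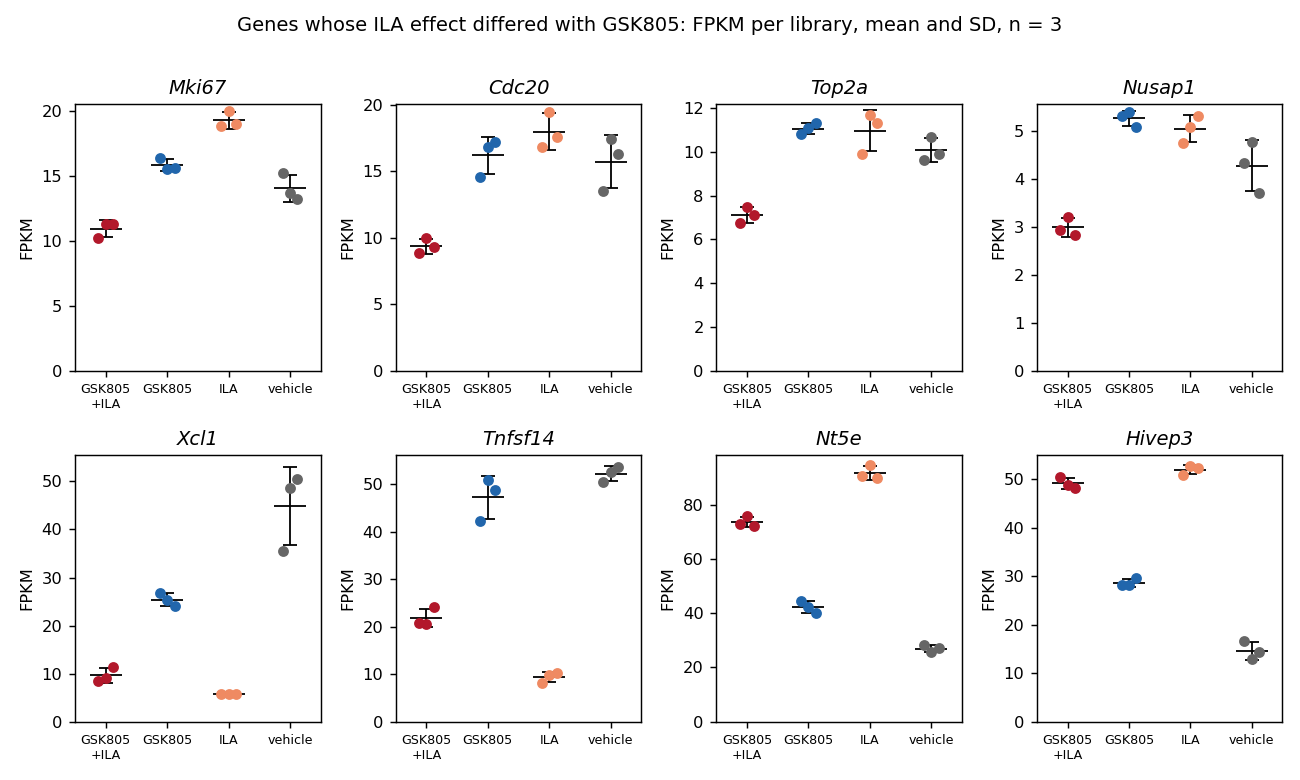
FPKM of 8 genes in each library (points), with the mean and SD of the 3 libraries of a group (bars), on linear axes from 0. In Mki67, Cdc20, Top2a and Nusap1 the 3 GSK805+ILA libraries are the lowest of all 12, in Xcl1 and Tnfsf14 the ILA libraries are the lowest, and in Nt5e and Hivep3 both groups with ILA lie above both without.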

How the data were processed

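FPKM values were deposited by the authors, 1 table per library. The submitters' processing notes name FastQC 0.11.2, Bowtie and the mm10 build. The counting program, its annotation, its use of strand and the Bowtie version were not given in the sources used here. With GENCODE vM21 gene lengths on GRCm38, 98.6% to 98.8% of the FPKM values checked came within 0.1 of a whole number of reads. The check left out genes without detected reads, those worth only a fraction of 1 read and those without a gene length. In these libraries 1 read in 1 kb was worth 0.0426 to 0.056 FPKM. Of 29522 identifiers, 28807 had a symbol and 715 had none.

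Values were transformed to log2(FPKM + 1). The test covered 13511 genes that averaged 1 FPKM or more in any of the 4 groups. A model with a mean for each group, fitted by limma 3.58.1 (R 4.3.3) over the 12 libraries, was used with a variance trend and robust moderation, and p-values were adjusted by Benjamini-Hochberg over all genes tested. The 2 ILA effects and their difference (the interaction) were contrasts. The script was tested on simulated data. Named genes were a fixed set of Th17 and AhR genes, the 10 largest rises and falls without overlap between libraries and with a mean of at least 5 FPKM, up to 4 genes per list, the 6 largest interactions each way, and 6 genes called in opposite directions. Unnamed, ribosomal protein, mitochondrial, receptor segment, microRNA and histone genes and pseudogenes were left out. Genes named beyond that rule, such as Il2, Ccl5, Ltb, Il16, Tgfb1, Hspa5, Canx, Tiparp, Nqo1, Tmem176a, Tmem176b, Il6ra, Lck, Zap70, Runx3, Gimap6, Myc and Rpa1, were chosen after their values were seen. A few genes are not reported here, and their places under the rule were not refilled. The genes, lists and rules were chosen with earlier results of these data known. Lists were described by counts and medians, without a set test. Of the 156 named genes 63 overlap another gene in position, 47 of them on the opposite strand, where reads cannot be told apart without strand. Hspa1a and Hspa1b, and Mcpt1 and Mcpt2, are near copies and their values are uncertain.

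Alternatives tried were quantile normalization, median centring, a pseudocount of 0.1, a filter at 5 FPKM or none, a fit without trend and robust moderation, a fit to only the groups compared, a replicate block, and the omission of 1 library at a time. Voom on the recovered reads was chosen after seeing the data. Python 3.11.15 (pandas 2.3.3, numpy 2.4.6, matplotlib 3.10.9) made tables and plots.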

Additional observations from a re-analysis of the deposited data

Results flagged for a closer look

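In 30 of the named genes the ILA effect with GSK805 differed from that with vehicle by the interaction test (limma adjusted p below 0.05). Many of these genes were named for a large interaction or for calls in opposite directions, so their interaction calls follow from that choice. The count of 30 therefore cannot be set against the 13.8% called among all 13511 genes tested. The values below are the difference between these ILA effects on the log2 scale. It was positive for the secreted factors and ligands Xcl1 (1.42), Tnfsf14 (1.27), Ccl3 (1.18), Ccl4 (1.03), Ifng (1.02), Il17a (0.81) and Inhba (0.58), which fell in both pairs and by less under inhibition. It was also positive for Il23r (1.25), the immune receptor Slamf7 (1.17), Zbtb32 (0.94), Perp (0.81) and Cth (0.74), which fell in both pairs, and for Nr4a2 (1.03), which fell with ILA alone and had no call under inhibition.

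It was negative for genes that rose in both pairs and by less under inhibition: Hivep3 (-1.01), Nt5e (-0.95), Sntb1 (-0.92), Gimap4 (-0.87), Maf (-0.74), Fyb (-0.69), Myo1f (-0.55), Cyp1b1 (-0.53) and Asb2 (-0.44). Ifitm1 (-1.33) and Rab29 (-0.97) rose with ILA alone and had no call under inhibition. The proliferation genes Mki67 (-0.93), Tcf19 (-0.83), Stmn1 (-0.69), Bub1b (-0.66) and Ccna2 (-0.63), with Bnip3 (-0.65), rose with ILA alone and fell with GSK805+ILA. Of the further 109 genes named through lists alone, 46 also had a called interaction, beside 13.8% of all 13511 genes tested. These genes were named as called list members with large differences under inhibition, so they are not a fair sample. Without ILA replicate 2 the interaction call was lost for Il1r1 (limma adjusted p = 0.095), Cd200 (0.0744), Cd40lg (0.0641) and Pik3ip1 (0.0731). It was also lost for Gpi1 (0.0568), Scd2 (0.069), Txn1 (0.0871) and Psmb9 (0.0778).

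The Asb2 difference missed the threshold without GSK805+ILA replicate 1 or 2 (adjusted p = 0.0708 and 0.0700), without GSK805 replicate 1, 2 or 3 (0.0625, 0.0622 and 0.0605), when ILA replicate 2 or 3 was left out (0.0754 and 0.0664), after quantile normalization (0.0701) and median centring (0.0766), with no filter (0.0902), with a pseudocount of 0.1 (0.188) and with voom (0.248). That of Inhba missed it without vehicle replicate 3 (0.0580), GSK805+ILA replicate 3 (0.0580) or ILA replicate 1 (0.0543) and with no filter (0.0647). With a pseudocount of 0.1 and with voom, the differences of Il23r (0.0923 and 0.246) and Myo1f (0.0781 and 0.0549) missed it. The Ifitm1 difference missed it with no filter (0.0566) and without GSK805 replicate 1 (0.0509), and that of Stmn1 with no filter (0.0573). The fall of Stmn1 under inhibition was lost without GSK805+ILA replicate 1 (adjusted p = 0.0566) and without GSK805 replicate 1 or 3 (0.0679 and 0.0738), with no filter (0.0707) and with only the groups compared (0.0724). That of Bnip3 was lost with no filter (0.0525), without GSK805+ILA replicate 1 or 3 (0.0705 and 0.0642) and without GSK805 replicate 1 (0.0752). The rises of Stmn1, Bub1b and Bnip3 with ILA alone were lost after quantile normalization (0.0868, 0.207 and 0.187) and median centring (0.198, 0.0895 and 0.199). Those of Stmn1 and Bnip3 were also lost with no filter (0.0794 and 0.0618), without vehicle replicate 1 (0.0891 and 0.101) and without ILA replicate 3 (0.0629 and 0.0646), that of Stmn1 also without vehicle replicate 2 or 3 (0.0676 and 0.0537) and without ILA replicate 1 (0.112), and that of Bnip3 without ILA replicate 2 (0.0647).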

How the results depend on the processing

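The counts of genes higher and lower with GSK805+ILA than with GSK805 stayed within 1.5 times of those reported under every alternative run, from 2231 to 3174 higher and from 1874 to 3294 lower. Without each of the 6 libraries in turn they ran from 2450 to 2689 higher and from 1926 to 2122 lower. The counts for ILA against vehicle also stayed within 1.5 times. The interaction moved more: 1268 positive and 733 negative with median centring, and 342 and 649 with no filter. Leaving out 1 of the 12 libraries gave 406 to 708 positive and 748 to 1232 negative. Of 2752 results of single named genes under an alternative, 2702 kept direction and call, 36 lost a call, 3 gained 1 and 11 changed sign, none of which had a call as reported or in the alternative. This tally holds the interaction only for genes named for their interaction or for calls in opposite directions. The interaction losses given above for Asb2, Inhba, Il23r and Myo1f and for genes named through lists alone are not in it. The sign changes of GSK805+ILA against GSK805 were Ahr (-0.02) after quantile normalization, Nr4a2 after quantile normalization (-0.01), median centring (-0.04), without GSK805+ILA replicate 2 (-0.03) and without GSK805 replicate 1 (-0.04), Ifitm1 without GSK805 replicate 3 (-0.05), and Rab29 after quantile normalization (-0.04), median centring (-0.02) and without GSK805+ILA replicate 1 (-0.04), GSK805 replicate 1 (-0.01) or GSK805 replicate 3 (-0.09). Without 1 library at a time those differences ran from -0.04 to 0.10 for Nr4a2, from -0.05 to 0.25 for Ifitm1 and from -0.09 to 0.23 for Rab29. The cause was not tested.

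Whether the replicate numbers pair the samples is not given, and these values do not settle it. Libraries of the same number deviated from their group means with correlations between -0.082 and 0.078, and not every library correlated best with its own number. Between ILA and GSK805 the same numbers had 0.053, 0.05 and 0.078, and different numbers -0.041 to -0.013. Between GSK805 and GSK805+ILA the same numbers had -0.017, -0.082 and 0.031. With the number as a block the counts were 2913 higher and 2384 lower, and 774 and 1175 for the interaction. Voom on the recovered reads, chosen after seeing the data, gave 3174 and 2653, and 943 and 1669. With 3 libraries a group, precision is limited, and genes near 1 FPKM rest on few reads.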

Other observations

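Lists not described in the report showed mixed counts for GSK805+ILA against GSK805. Of 18 STAT and SOCS genes 10 rose and 2 fell (7 and 4 with median centring), with Socs3, a brake on cytokine signalling, at 17.7, 19.4 and 15.9 FPKM with GSK805+ILA, against 9.82, 8.19 and 6.01 FPKM with GSK805. The kinase Jak3 rose by a log2 difference of 0.95 (limma adjusted p = 8.4e-07). Of 13 genes of MHC class I presentation 6 rose and 2 fell (6 and 4 with median centring), with the immunoproteasome subunits Psmb10, Psmb9 and Psmb8 higher by 1.27, 0.87 and 0.86 on the log2 scale. Of 12 interferon response genes at or above 1 FPKM 7 rose and 1 fell (3 and 0 with a filter at 5 FPKM): the RNA sensor Ddx58 rose by 1.20, whereas Ifit3 fell to 0.835 ± 0.333 FPKM with GSK805+ILA, against 2.5 ± 0.578 FPKM with GSK805 (SD, n = 3; adjusted p = 0.00049). The shares over all genes tested were 22% higher and 17.5% lower.

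Metabolic lists split. Of 28 genes of glycolysis and hypoxia 5 rose and 11 fell, with Ndrg1 lower by 0.91 and Gpi1 higher by 0.49 on the log2 scale. With ILA alone 15 rose and 9 fell, beside 33.9% and 24% of all genes tested. In this list 10 interactions were negative and 1 positive, beside 8.7% and 5.15% of all genes tested. The rises under inhibition were 3 without GSK805+ILA replicate 2 or GSK805 replicate 3, with no filter and with median centring. With median centring 4 interactions were negative and 4 positive. The negative interactions were 4 with no filter and without GSK805 replicate 1, 5 without vehicle replicate 3 or ILA replicate 2, and 6 without GSK805+ILA replicate 3 or GSK805 replicate 2. Of 22 cholesterol synthesis genes 6 rose and 2 fell (3 and 2 with a filter at 5 FPKM). Of 16 genes of the oxidative stress response to NRF2, 3 rose and 5 fell, with Srxn1, which repairs peroxiredoxins, at 8.3, 6.55 and 7.02 FPKM with GSK805+ILA, against 19, 17.5 and 16 FPKM with GSK805. Of 30 genes of oxidative phosphorylation 7 rose and 5 fell, of 23 of apoptosis and p53 7 rose and 7 fell, and of 17 of the circadian clock 5 rose and 7 fell; the medians of these 3 lists, 0.03, 0.01 and 0.04, were -0.03, -0.05 and -0.02 with median centring. Without GSK805+ILA replicate 2 or GSK805 replicate 2, 4 oxidative phosphorylation genes rose, and without GSK805+ILA replicate 2, 4 apoptosis genes fell. Of 14 heat shock genes 3 rose and 8 fell. The near copies Hspa1a and Hspa1b rose by 1.01 and 0.93, and Hspa9 fell by 0.47 on the log2 scale.

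Integrins and chemokine receptors moved in both directions, 9 of 18 higher and 7 lower. Itgb7 and Selplg, which serve homing to tissue, rose by 0.96 and 0.98 on the log2 scale, and Itgav, an integrin chain, had 20.6, 17.9 and 19 FPKM with GSK805+ILA, against 41.9, 39.5 and 37.3 FPKM with GSK805. Of 9 genes of purinergic signalling 6 rose and 1 fell, and P2rx7, an ATP-gated channel, had 0.999, 1.53 and 1.64 FPKM with GSK805+ILA, against 0.236, 0.224 and 0.279 FPKM with GSK805. Of 19 naive and quiescent T cell genes 10 rose and 7 fell, with Lef1 higher by 0.90 and Slfn2 lower by 0.85. Of 8 Tfh genes 3 rose and 4 fell, of 14 TGF-beta pathway genes 6 rose and 3 fell, of 10 fatty acid synthesis genes 4 rose and 4 fell, and of 9 granzyme and cytotoxicity genes 1 rose and 2 fell, or 1 fell without GSK805+ILA replicate 2 or GSK805 replicate 2.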
